A study of Homo sapiens with 8 samples.

Results

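The olfactomedin family was described gene by gene in Ewing sarcoma cells in which the transcription factor FEZF1 was silenced. Its members here were the 8 genes OLFM1, OLFM2, OLFM3, OLFM4, OLFML1, OLFML2A, OLFML2B and OLFML3, chosen by name out of 34792 genes with summed reads. Of the 158867 RefSeq transcripts in the files, 31 were matched to them. OLFM3 and OLFM1 were set against the other members because of their change with doxycycline, which was known when the family was selected, so every doxycycline value of a member is a description. Of the 8 members, 6 had enough reads to pass the filter on low counts among 15993 genes, and OLFM4 and OLFML1 did not.

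The cells were A673/TR/shFEZF1, made from A673, an Ewing sarcoma line that carries the fusion oncogene EWSR1-FLI1. All 8 cultures shared the tetracycline repressor, the inducible shRNA against FEZF1 and selection with blasticidin, puromycin and zeocin. The control group was untreated and the doxycycline group received 1 µg/mL for 72 h, with 4 cultures each: the polyclonal population and clones 3, 5 and 6. The parental A673/TR line was itself 1 clone picked for its repressor level, and the shRNA clones were picked for strong loss of FEZF1 protein. Each origin gave 1 library per treatment, and no culture without the shRNA was analysed here, so an effect of doxycycline itself cannot be told apart from one of the shRNA. Between 26719886 and 42422421 reads per library were assigned to transcripts, and 89.9% to 91.1% of them belonged to transcripts matched to a gene symbol. All 9 Ewing sarcoma markers, among them CD99 and NKX2-2, were above 1 CPM in each library (CPM are reads scaled to the library size). Of these, CCK ranged from 2.17 to 154 CPM over the libraries. How the Ewing sarcoma markers moved with doxycycline is not described here. Of 5 markers of blood, endothelial, epithelial and muscle cells, CDH5 and MYOD1 had no reads and PTPRC had at most 0.0844 CPM. The epithelial EPCAM was at 0.101, 0.0315, 1.74 and 0.121 CPM in the controls of the polyclonal population and clones 3, 5 and 6, and at 0.553, 0.465, 2.92 and 0.925 CPM in their treated counterparts, higher in 4 of 4 pairs. The endothelial PECAM1 was also higher in 4 of 4 pairs, between 0.339 and 0.853 CPM over all libraries. The 5 markers summed to 0.398 to 2.10 CPM in the controls and to 1.21 to 3.80 CPM with doxycycline, and their part in the doxycycline results below was not tested.

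Olfactomedin proteins are mostly secreted glycoproteins that share a propeller-shaped domain at the end of the chain. The noelins OLFM1, OLFM2 and OLFM3 are best known from the nervous system, where they associate with AMPA-type glutamate receptors, and OLFM1 also binds the Nogo receptor of axons. OLFM4 marks intestinal stem cells and a subset of neutrophils. OLFML2A and OLFML2B are the photomedins of the extracellular matrix, and OLFML3 is a matrix protein of vessels and microglia. FEZF1 is a zinc finger repressor of the developing forebrain and olfactory system.

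The stretches just upstream of OLFM3 and OLFM1 are shown because these genes were both lower with doxycycline in all pairs of cultures. OLFM3 (RefSeq gene ID 118427) lies at chr1:101802560-101996926 of GRCh38 on the minus strand, and OLFM1 (gene ID 10439) at chr9:135075505-135121184 on the plus strand. The sequences are the 250 bases before the outermost start that GENCODE release 44 or RefSeq annotates for each gene (101996926 for OLFM3, and for OLFM1 a GENCODE start at 135075422, upstream of the RefSeq one), read 5′ to 3′ in the direction of the gene, at chr1:101996927-101997176 (minus strand) and chr9:135075172-135075421 (plus strand), and no GENCODE transcript reaches into them. Capitals mark GGAA and its reverse complement TTCC, the core of the sites that ETS factors such as FLI1 bind.
OLFM3: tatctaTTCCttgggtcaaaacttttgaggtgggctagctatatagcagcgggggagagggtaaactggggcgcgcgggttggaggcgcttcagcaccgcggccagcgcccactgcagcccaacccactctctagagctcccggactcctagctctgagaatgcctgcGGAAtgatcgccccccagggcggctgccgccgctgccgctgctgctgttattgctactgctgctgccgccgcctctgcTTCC
OLFM1: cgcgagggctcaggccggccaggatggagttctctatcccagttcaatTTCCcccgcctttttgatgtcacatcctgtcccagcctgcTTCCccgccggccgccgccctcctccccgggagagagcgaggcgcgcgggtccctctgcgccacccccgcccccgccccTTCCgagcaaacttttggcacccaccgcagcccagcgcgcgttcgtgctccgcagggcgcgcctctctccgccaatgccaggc
The OLFM3 window held 3 such cores and the OLFM1 window also held 3. Of 35116 RefSeq promoter windows of the same length, 92.7% held at least 1, and the median was 3.0 cores. The tandem GGAAGGAA, which holds the core 2 times and was searched on both strands, was in neither window and in 3.06% of all windows. These matches describe letters only. Their GC content was 63.2% for OLFM3 and 70.4% for OLFM1, against a median of 58.0% over all windows. The main OLFM3 transcript of the files, NM_058170.4, had the length of the GENCODE transcript that starts at 101996926, directly downstream of the printed window. For OLFM1, only NM_001282611.2 could be tied to a start by its length, and that start, at 135087668, lies downstream of the first one, so the printed window is not the promoter of that transcript.

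FEZF1, the targeted gene, was checked first. Without doxycycline it stood at 96.4, 70.5, 107 and 74.4 CPM in the polyclonal population and clones 3, 5 and 6, and with doxycycline at 60.6, 42.9, 60.8 and 36.4 CPM in the same order. It was lower by 37.2%, 39.1%, 43.3% and 51.0%, and the groups did not overlap. Its log2 fold change was -0.80 (standard error 0.20), with an adjusted p of 0.29 by edgeR's quasi-likelihood test without pairing and 0.00594 with the origin of the cultures as a block, over a range of 1.08e-18 to 0.768 among all the fits tried.

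OLFM3, the noelin also called optimedin, had the log2 fold change furthest below 0 among the tested members. Its control level was 149.9, 185, 129 and 225 CPM in the polyclonal population and clones 3, 5 and 6, and its doxycycline level was 82.8, 75.4, 48.5 and 97.5 CPM. The groups did not overlap, and the lowest value of all was in clone 5. On average OLFM3 was at 172 ± 41.9 CPM without and 76.1 ± 20.6 CPM with doxycycline (SD, n = 4 each). Within pairs, OLFM3 was lower by 44.7% in the polyclonal population and by 59.3%, 62.5% and 56.6% in clones 3, 5 and 6. The fitted log2 fold change was -1.18 (standard error 0.23), and -1.19 (standard error 0.09) with the origin as a block. In bulk RNA of this kind, fewer cells that express a gene and less of its RNA per cell cannot be told apart.

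OLFM1, a noelin of axon growth and synapses, stood at 133, 107, 89.2 and 146 CPM without doxycycline and at 104, 71.5, 56.9 and 82.9 CPM with it, in the same order of origins. It was lower in 4 of 4 pairs, by 22.1%, 33.1%, 36.1% and 43.1%, yet the groups overlapped, because the treated polyclonal culture stood above the untreated culture of clone 5. On average OLFM1 was at 119 ± 25.4 CPM without and 78.7 ± 19.7 CPM with doxycycline (SD, n = 4 each), and the log2 fold change was -0.59 (standard error 0.20), or -0.60 (standard error 0.08) with the block. The log2 ratio within a pair was further below 0 for OLFM3 than for OLFM1 in each origin, at -0.85 against -0.36 in the polyclonal population, -1.29 against -0.58 in clone 3, -1.41 against -0.64 in clone 5 and -1.20 against -0.81 in clone 6. Per transcript length, OLFM3 was at 0.756, 1.15, 0.958 and 1.01 times the level of OLFM1 in the controls (TPM, reads scaled to transcript length and library size). With doxycycline that ratio was 0.544, 0.683, 0.570 and 0.758, lower in all 4 pairs. The OLFM3 sum held 88.8% of the authors' mean of normalized counts and the OLFM1 sum 99.0%, so these ratios are of matched transcripts only.

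OLFM2, the remaining noelin, did not share this direction. It was at 194, 182, 201 and 178 CPM without doxycycline and at 267, 162, 237 and 209 CPM with it. It was higher in 3 of 4 pairs and lower in clone 3, and the groups overlapped. It averaged 189 ± 10.7 CPM without and 219 ± 44.8 CPM with doxycycline (SD, n = 4 each), and its log2 fold change was 0.21 (standard error 0.14).

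**Figure D1:**
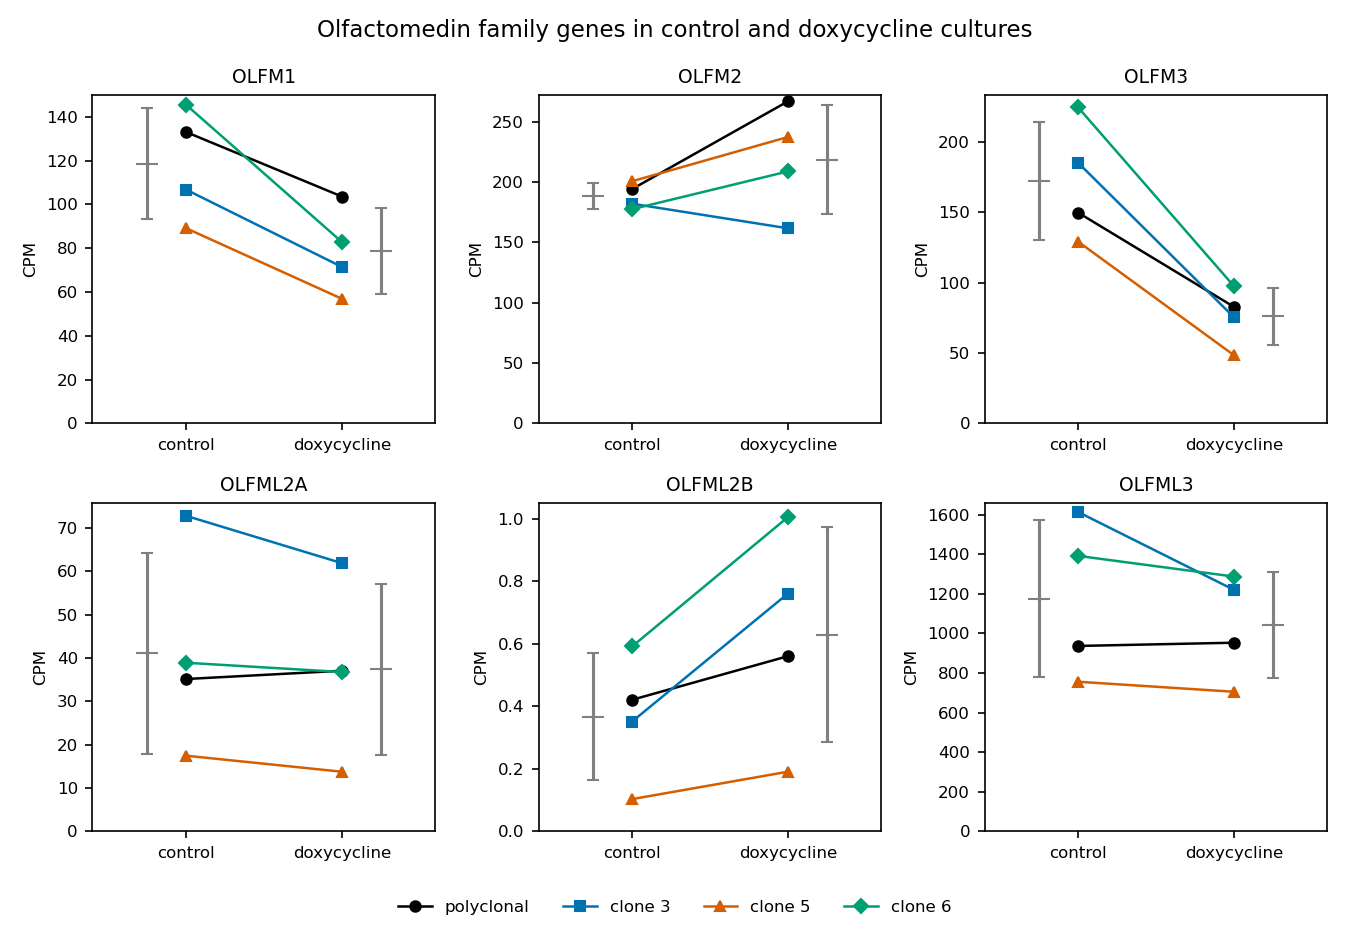
CPM (vertical axis, from 0) of the 6 tested members in control and doxycycline cultures, with a line joining the 2 cultures of an origin and grey bars giving the mean and SD of 4 cultures. For OLFM3 the doxycycline points, 48.5 to 97.5 CPM, all lie under the control points, 129 to 225 CPM, while for the other 5 genes the groups overlap.

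Of the olfactomedin-like genes, OLFML3 and OLFML2A had smaller differences between treatments than OLFM1. OLFML3 was at 937, 1613, 756 and 1392 CPM without doxycycline and at 953, 1220.0, 705 and 1287 CPM with it, so that the origins differed more than the treatments. OLFML2A was at 35.2, 72.8, 17.5 and 38.9 CPM without and at 37.1, 61.9, 13.8 and 36.8 CPM with doxycycline, again in the same order of origins. Both were lower in 3 of 4 pairs and slightly higher in the polyclonal population, with log2 fold changes of -0.17 (standard error 0.26) for OLFML3 and -0.14 (standard error 0.47) for OLFML2A.

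OLFML2B had few reads, and its sum held only 37.7% of the authors' mean, so its values cover a part of the reads they counted for it. It was at 0.421, 0.352, 0.103 and 0.592 CPM without doxycycline and at 0.561, 0.761, 0.191 and 1.01 CPM with it, which rests on 3 to 26 reads per library. It was higher in 4 of 4 pairs with overlapping groups, and its log2 fold change was 0.74 (standard error 0.58). OLFM4 had at most 2 reads in any library and 7.0 in all, and OLFML1 at most 4 per library and 17.1 in all, so no change in either was detectable at this depth.

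Counted over the tested members, 0 of 6 were called by edgeR without pairing, where 0.00625% of all genes were called (1 of 15993), and 2 of 6, OLFM1 and OLFM3, had an unadjusted p under 0.05, as had 1155 genes in all. With the origin as a block, these 2 were called, both lower, where 7.63% of all genes were called, 3.91% lower and 3.73% higher. DESeq2 called 1 member, OLFM3, beside 1.44% of all genes, and with the block OLFM1 and OLFM3 beside 12.0%. OLFM3 was the single tested member whose groups did not overlap with doxycycline on the low side, as in 2.33% of all genes. OLFM1 and OLFM3 were lower in 4 of 4 pairs, as were 15.9% of all genes, and OLFML2B was higher in 4 of 4, as were 17.3%. The median log2 fold change of the 6 tested members was -0.15, against 0.01 over all genes tested. The members were selected on this contrast, so these counts carry no support of their own.

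**Figure D2:**
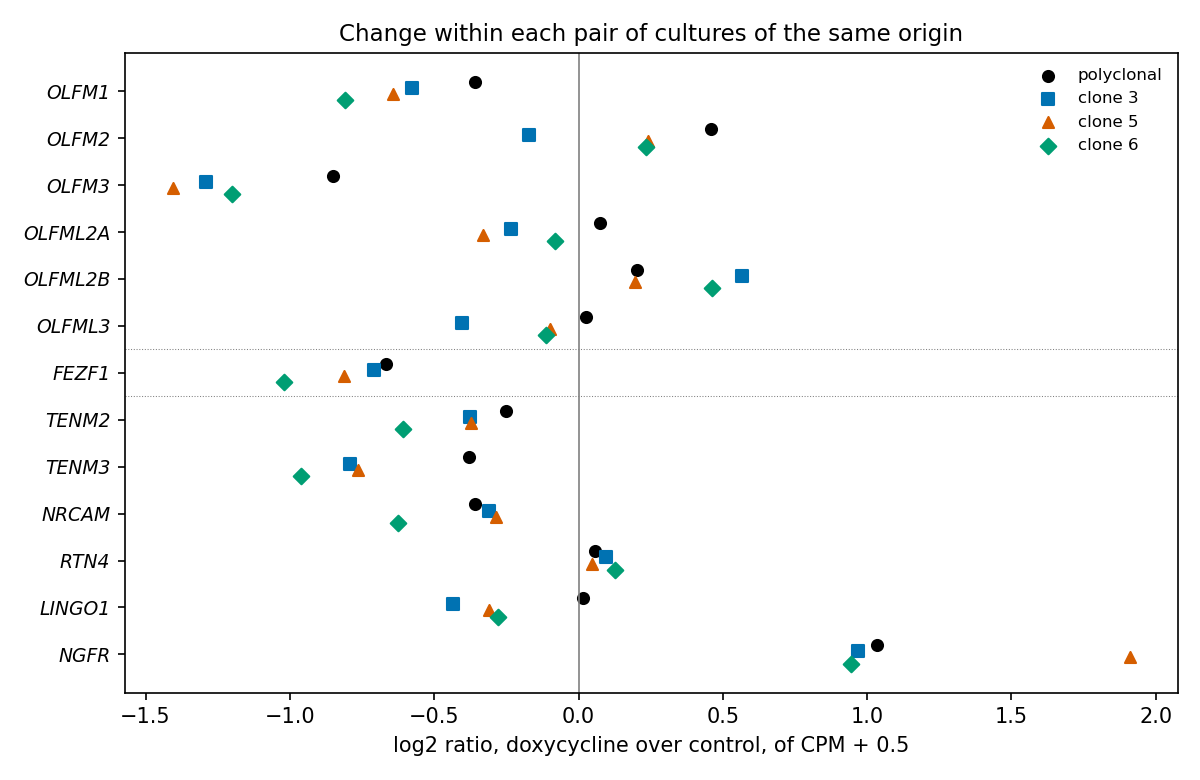
Log2 ratio of doxycycline over control within each pair of cultures (horizontal axis, on CPM + 0.5), 1 symbol per origin, for the 6 tested members, FEZF1 and 6 related genes. OLFM3 lies between -1.41 and -0.85 and OLFM1 between -0.81 and -0.36, NGFR lies between 0.94 and 1.91, and the other members except OLFML2B have points on both sides of 0.

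Salmon also split the reads of each gene among its RefSeq transcripts, a split that is an estimate wherever transcripts overlap. How many of all transcripts had groups without overlap, or moved the same way in 4 of 4 pairs, was not counted. For the transcripts below, both are therefore a description only. For OLFM3 the protein-coding NM_058170.4 took 82.3%, 85.2%, 83.4% and 84.6% of the reads in the control cultures of the polyclonal population and clones 3, 5 and 6, and 81.4%, 75.7%, 79.5% and 81.0% with doxycycline. This transcript was at 112, 146, 96.2 and 180.3 CPM without and at 61.1, 51.0, 34.2 and 73.4 CPM with doxycycline, and its groups did not overlap. NM_001288823.1, the next in abundance among the matched transcripts, averaged 18.6 ± 3.54 CPM without and 9.68 ± 3.66 CPM with doxycycline (SD, n = 4 each), lower in 4 of 4 pairs. The noncoding NR_110211.1 was at 3.54 ± 0.671 and 1.99 ± 0.630 CPM, also lower in 4 of 4 pairs. NM_001288821.1, at 3.19 ± 1.99 and 2.43 ± 1.34 CPM, was lower in 2 pairs and higher in 2. The other 2 matched transcripts of OLFM3 had no reads. The matched transcripts held 88.8% of the authors' mean for OLFM3, so these shares are of matched reads only.

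The 4 transcripts of OLFM1 did not move alike. NM_014279.5 was at 50.8, 35.3, 38.8 and 42.9 CPM without doxycycline and at 29.0, 9.50, 18.5 and 19.1 CPM with it, so its groups did not overlap although those of the whole gene did. NM_001282611.2 (29.2 ± 11.8 and 19.0 ± 5.39 CPM) and NM_006334.4 (10.6 ± 2.95 and 6.67 ± 1.72 CPM) were lower in 4 of 4 pairs. NM_001282612.1 was at 21.4, 32.4, 16.3 and 39.5 CPM without and at 31.4, 32.6, 13.4 and 29.2 CPM with doxycycline, higher in 2 pairs and lower in 2. Its share of the OLFM1 reads was 17.8%, 32.8%, 20.5% and 28.6% in the controls and 33.5%, 51.0%, 26.4% and 37.9% with doxycycline, higher in 4 of 4 pairs, while the share of NM_014279.5 was lower in 4 of 4. Summed, the OLFM1 transcripts other than NM_001282612.1 averaged 81.8 ± 19.6 CPM without and 44.7 ± 13.7 CPM with doxycycline (SD, n = 4 each).

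**Figure D3:**
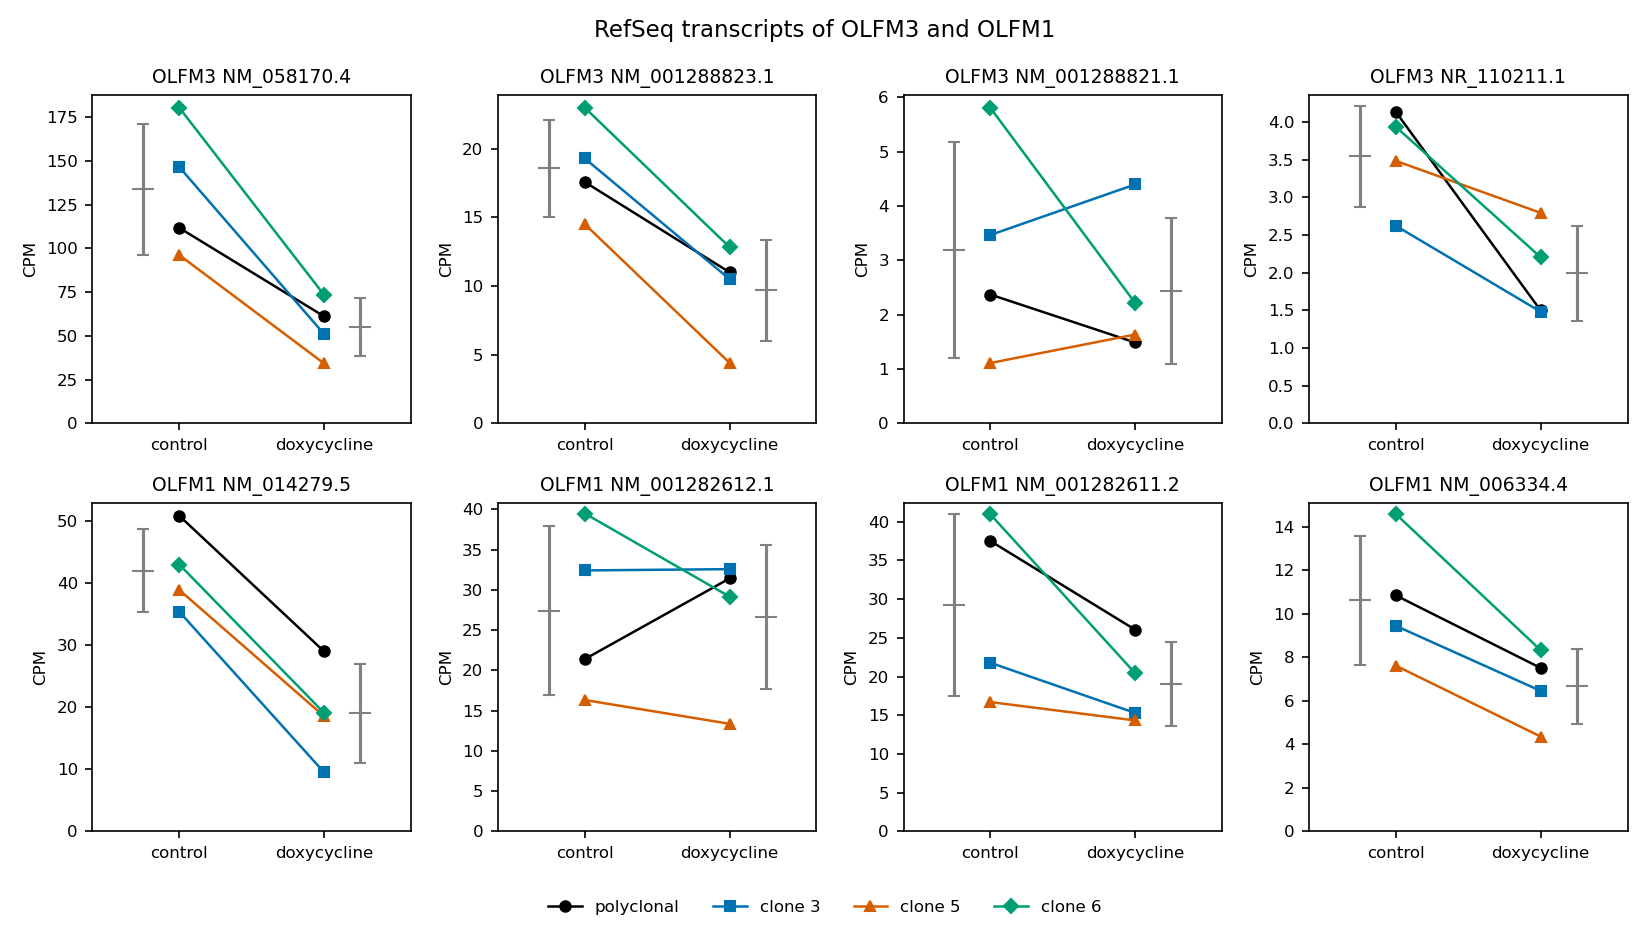
CPM (vertical axis, from 0) of the 4 matched OLFM3 transcripts with reads (top) and the 4 OLFM1 transcripts (bottom), with a line joining the cultures of an origin and grey bars giving mean and SD of 4 cultures. The lines of NM_058170.4 and NM_014279.5 all slope down with no overlap of the groups, while those of NM_001282612.1 cross.

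**Figure D4:**
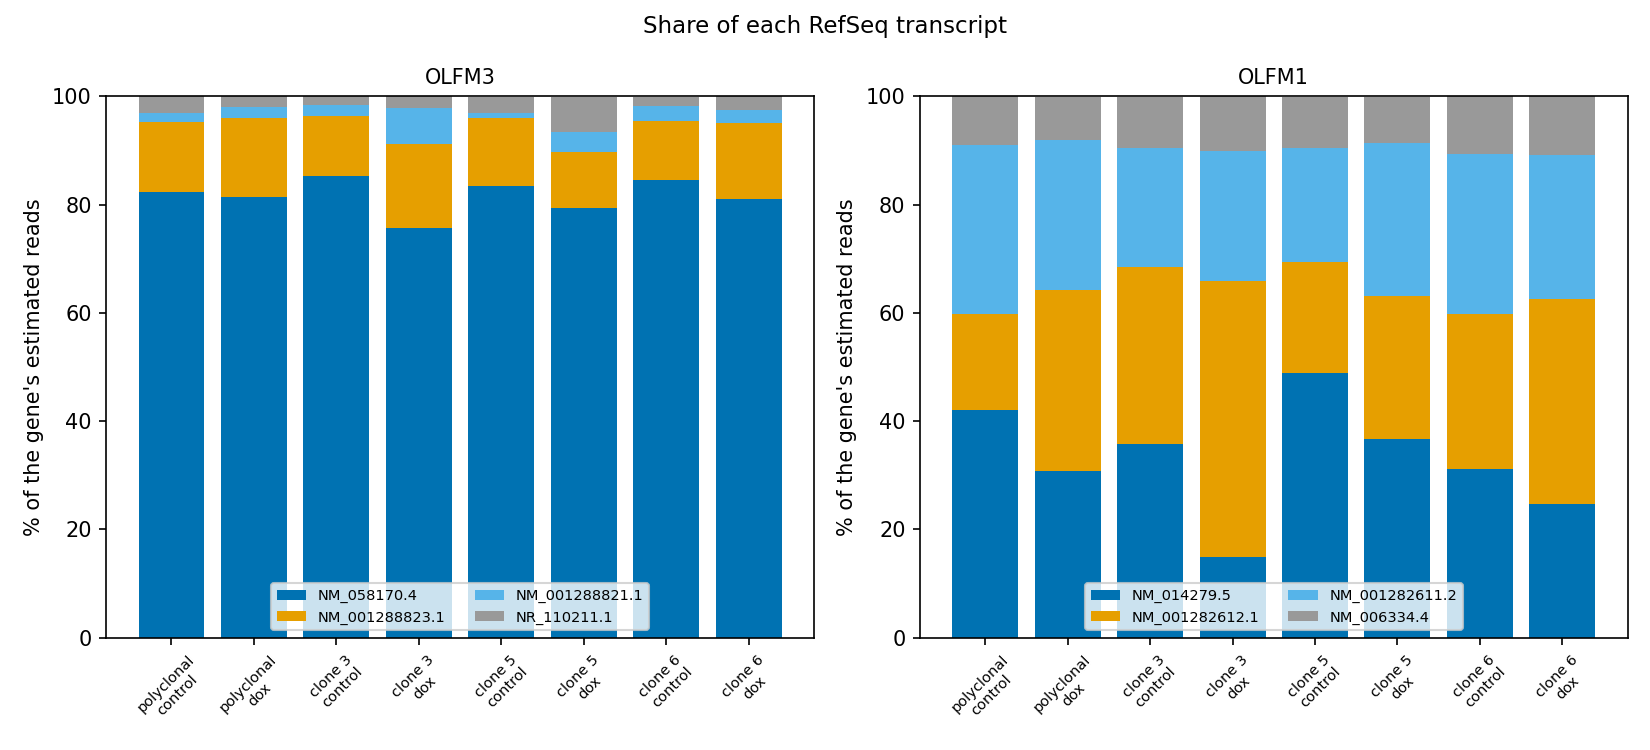
Share of each gene's matched estimated reads (vertical axis, %) taken by each RefSeq transcript in the 8 libraries, 1 stacked bar per library. NM_058170.4 takes 75.7% to 85.2% of OLFM3, and NM_001282612.1 takes a larger part of OLFM1 in the doxycycline bar of each origin.

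For OLFM2 the main transcript NM_058164.4 averaged 130.0 ± 9.89 CPM without and 134 ± 36.9 CPM with doxycycline, whereas NM_001304347.2 was at 29.1 ± 4.65 and 43.9 ± 7.96 CPM and higher in 4 of 4 pairs (SD, n = 4 each). NM_020190.5 took 91.9% to 94.5% of the OLFML3 reads in every library. Of the 31 transcripts of the family 20 passed the filter on low counts, and 0 were called without pairing (4 at an unadjusted p under 0.05), where edgeR called 0.00612% of 49037 transcripts (3 in all, and 1389 at that unadjusted threshold). With the block 0 were called (6 at an unadjusted p under 0.05), where edgeR called 0.0% of all transcripts (3452 at an unadjusted p under 0.05).

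How the members differed between the polyclonal population and the clones was not used to choose them and was tested. Of the 6 tested members, 5 differed between the 4 origins (edgeR's quasi-likelihood F test with treatment in the model, Benjamini-Hochberg adjusted over all genes), where 39.4% of all genes did. OLFML2A, a photomedin, had means of 36.1, 67.3, 15.6 and 37.8 CPM over the cultures of the polyclonal population and clones 3, 5 and 6 (adjusted p = 0.000248). Clone 3 thus stood 4.31-fold above clone 5. OLFML3 had means of 945, 1417, 731 and 1339 CPM (adjusted p = 0.00180), a 1.94-fold difference between clones 3 and 5.

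Of the noelins, OLFM3 had means of 116, 130.4, 88.9 and 161 CPM (adjusted p = 0.00796), 1.81-fold higher in clone 6 than in clone 5. OLFM1 had means of 118, 89.1, 73.0 and 114 CPM (adjusted p = 0.00683), 1.62-fold higher in the polyclonal population than in clone 5. OLFM2, at 231, 172, 219 and 193 CPM, did not pass the test (adjusted p = 0.112). OLFML2B, the member with few reads, had an adjusted p of 0.0270 and a 5.43-fold difference between clones 6 and 5. In clone 5 it had 2.85 reads without and 5.76 with doxycycline. DESeq2's test between origins gave OLFML2B an unadjusted p of 0.0927 and no adjusted p.

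Clone 5 had the lowest mean for OLFM1, OLFM3, OLFML2A, OLFML2B and OLFML3, and the call rested on it for some of these. Without the cultures of clone 5, OLFML2A and OLFML3 passed and the adjusted p was 0.0585 for OLFM1, 0.0690 for OLFM3 and 0.388 for OLFML2B. Without those of clone 6, OLFML2B had an adjusted p of 0.0926. The control file of clone 5 also differs from the other 7 in its row order and number format; whether it was processed apart is not given in the sources used here, and its part in these results was not tested beyond leaving clone 5 out. FEZF1 itself was highest in clone 5 in the controls, at 107 CPM, and with doxycycline it stood at 60.8 CPM in clone 5 beside 60.6 CPM in the polyclonal population.

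Levels between genes were compared per transcript length, in TPM. In the controls OLFML3 was at 1191 ± 390 TPM (SD, n = 4), rank 102 of 34792 genes by mean, and it made up 70.2% to 82.6% of the summed TPM of the family in all 8 libraries. OLFM2 followed at 170 ± 15.5 TPM, and then OLFM1 at 95.2 ± 21.4 and OLFM3 at 91.1 ± 20.6, which did not differ beyond their spread. OLFML2A was at 10.6 ± 6.04 TPM, below the range of the noelins. OLFML2B, OLFML1 and OLFM4 were under 1 TPM, at means of 0.165, 0.0412 and 0.0196, and the control ranges of neighbours in this order overlapped.

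**Figure D5:**
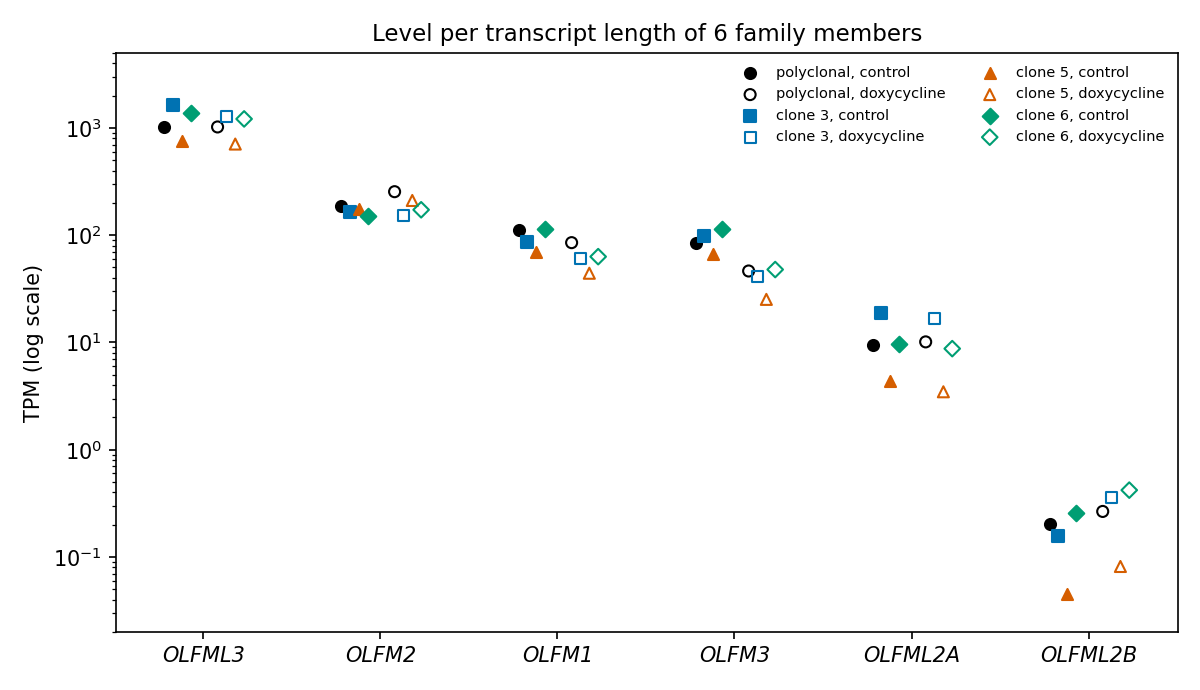
TPM on a log axis of 6 members in each library, with filled symbols for control and open symbols for doxycycline cultures. OLFML3 lies highest, the 3 noelins lie between 25.2 and 255 TPM, and OLFML2B lies under 1 TPM in all 8 libraries.

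Related genes were read from the same fits. They were other genes with an olfactomedin domain, partners of latrophilins and gliomedin, AMPA receptor genes and genes of the Nogo receptor pathway. Of 31 such genes, 19 passed the filter; 0 were called without pairing, with 2 (TENM3 and NGFR) at an unadjusted p under 0.05, and their median log2 fold change was -0.16 against 0.01 over all genes. With the origin as a block, 3 of 19 fell, where edgeR called 3.91% of all genes lower, and 1 of 19 rose, where it called 3.73% higher. All 3 that fell were among 6 tested of 9 partners of latrophilins and of gliomedin, which carry olfactomedin domains themselves. In the other lists 0 of 2 tested genes with an olfactomedin domain, 0 of 5 tested AMPA receptor genes and 1 of 6 tested genes of the Nogo receptor pathway were called. These lists were drawn up with earlier results of these data known, so their counts are a description and carry no support of their own. Of the tested related genes, FLRT1, ADGRL2 and FLRT2 had sums of only 30.3%, 49.3% and 77.9% of the authors' mean. Their fits therefore cover a part of the reads, while the other tested related genes held at least 97.2%. DESeq2 with the block, which called 12.0% of all genes, called 6 related genes: these 4, LINGO1 and ADGRL1. ADGRL1, a latrophilin with an olfactomedin domain that is named here after its values were seen, was lower in 4 of 4 pairs. In that fit its log2 fold change was -0.26 (standard error 0.09, DESeq2 adjusted p = 0.0231), and edgeR with the block gave an adjusted p of 0.0973 (range over all fits 0.0231 to 1.00).

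TENM2 and TENM3 are teneurins, cell surface ligands of latrophilins. TENM3 was at 31.3, 30.4, 23.3 and 31.7 CPM in the controls of the polyclonal population and clones 3, 5 and 6, and at 23.9, 17.4, 13.5 and 16.0 CPM with doxycycline. Its groups overlapped only through the untreated culture of clone 5 and the treated polyclonal culture. With the block its log2 fold change was -0.74 (standard error 0.11, edgeR adjusted p = 0.0117, range over all fits 7.28e-07 to 0.770). TENM2 was at 258, 277, 179 and 231 CPM without and at 217, 213, 138 and 151 CPM with doxycycline, with overlapping groups and a blocked log2 fold change of -0.40 (standard error 0.07, edgeR adjusted p = 0.0171, range over all fits 5.88e-07 to 1.00). NRCAM, an adhesion molecule that gliomedin binds at nodes of Ranvier, was at 53.9, 54.2, 30.7 and 70.4 CPM without and at 42.0, 43.6, 25.1 and 45.4 CPM with doxycycline. Its blocked log2 fold change was also -0.40 (standard error 0.08, edgeR adjusted p = 0.0240, range over all fits 0.000203 to 1.00).

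NGFR, the neurotrophin receptor that serves as a coreceptor in the Nogo receptor complex, went the other way. NGFR was at 61.2, 82.9, 57.2 and 52.8 CPM without doxycycline and at 126, 162, 216 and 102 CPM with it, without overlap. The share of all genes without overlap on the high side was not counted. Its blocked log2 fold change was 1.22 (standard error 0.16, edgeR adjusted p = 0.00861, range over all fits 7.68e-06 to 0.760). RTN4, which encodes Nogo, was the most abundant related gene at 249 ± 10.9 TPM in the controls, and its log2 fold change of 0.08 (standard error 0.05 with the block) did not pass the test. LINGO1, another part of the Nogo receptor complex, was at 117 ± 13.6 TPM in the controls, and its log2 fold change with the block was -0.25 (standard error 0.08, edgeR adjusted p = 0.0858, range over all fits 0.0148 to 1.00). Leaving out the pair of clone 5 raised the blocked adjusted p to 0.0527 for TENM3, 0.0670 for TENM2 and 0.0713 for NRCAM, and leaving out that of clone 6 raised it to 0.0510, 0.0527 and 0.0764. NRCAM was also not called without the polyclonal pair (0.0627) or without clone 3 (0.0567), while NGFR was called in all 4 cases.

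The genes whose log2 CPM was most like that of OLFM3 over the 8 libraries were TSPAN3, PRKACB, SPOP, NSUN6 and TMTC4, with Pearson's r from 0.980 to 0.988, and those most like OLFM1 were MAPK11, MAML3, GDF11, NHLRC2 and FZD1, with r from 0.977 to 0.994. They are the top 5 of 15993 genes in 4 pairs that share a treatment and an origin, so they are given as a description. OLFM3 and OLFM1 themselves had r = 0.880, and r = 0.753 after each treatment group's mean was taken out. After that step OLFM3 had r = 0.892 with OLFML2B, 0.854 with OLFML3, 0.715 with OLFML2A and -0.279 with OLFM2. FEZF1 had r = 0.491 with OLFM3 before the means were taken out and r = -0.755 after. With OLFM1 it had r = 0.489 before and r = -0.222 after. On these centred values the top 5 became LOC105377409, RNF135, SLC66A3, CTSO and LOC107986985 for OLFM3 (r from 0.984 to 0.991) and SPTLC2, MAPK11, GDF11, KIF26A and MAML3 for OLFM1 (r from 0.971 to 0.993).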

How the data were processed

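Poly(A) RNA of 8 cultures was sequenced from stranded paired-end libraries. The files deposited by the authors come from Salmon, run against RefSeq transcripts of GRCh38, and give estimated counts and TPM (scaled to transcript length and library size) for 158867 transcripts per library; the strand setting is not given in the sources used here. Their DESeq2 (2.11.40.6) table was deposited as well. Its mean of normalized counts, a signal over all 8 libraries, was used only as a check of completeness, and columns 3 to 7, which hold the authors' fold changes, errors, statistics and p-values, were not used. The clone 5 control file has another row order and number format than the other 7 files, with the same transcripts and lengths.

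Here 115325 transcripts (72.6%) were matched by accession to RefSeq symbols (GRCh38.p14) and added up per gene, which gave 34792 genes. The sums held 88.8% of the authors' mean for OLFM3, 37.7% for OLFML2B and at least 98.6% for the other members; reads of transcripts not matched are missing from these values. RefSeq genes overlap the spans of OLFM2 (1 gene), OLFM3 (DNAJA1P5 and RNU6-352P) and OLFML1 (1 gene). Salmon assigned reads to transcripts, and only transcripts matched to a member were added up for it. Position within the span alone therefore adds no reads. Whether these genes share transcript sequence with the members was not checked.

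After rounding and filterByExpr, TMM factors were computed and the quasi-likelihood test of edgeR 4.0.16 (R 4.3.3) was run, doxycycline against control, with Benjamini-Hochberg adjustment over all genes at 0.05. The model held no pairing, since the study's methods name DESeq2 but no design formula or pairing. CPM are TMM-scaled, and ratios within pairs used CPM plus 0.5. The cultures of an origin come from the same cells. Their deviations from the group means of log2 CPM (prior count 2) correlated at 0.406 to 0.590, and those of different origins at -0.395 to 0.179, so the block pairs by origin. Without the block, p-values reflect the spread between the 4 cultures of a treatment. With it, they reflect how the change with doxycycline varied between the 4 origins. Between origins an F test on 3 terms was used, and its error was that same variation of the change. DESeq2 1.42.0 (alone and with the block), DESeq2's size factors, filters of 1 count in any or 10 counts in every library and leaving out each origin were the alternatives. The doxycycline fits of genes by edgeR and DESeq2, with and without the block, and edgeR's test between origins were also run on simulated counts. The outcome is not reported here, and the other alternatives and the transcript fits were not run on simulated counts.

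The members, the lists of related and marker genes and the tests were chosen with earlier results of these data known. Named are the 8 members, FEZF1, related genes called by edgeR with or without the block or among the 3 highest by control TPM, and the 5 genes most like OLFM3 and OLFM1. ADGRL1 is named besides for its call by DESeq2, and ADGRL2, FLRT1 and FLRT2 for their incomplete sums. Promoter windows were read from the GRCh38 sequence. Python 3.11.15, pandas 2.3.3, numpy 2.4.6 and matplotlib 3.10.9 were used. Protein sequences were not used here.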

Additional observations from a re-analysis of the deposited data

Results flagged for a closer look

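Among 70 groups of 4 libraries (genes and transcripts named here, within 1 treatment), 5 held a library far from the other 3, and chance alone gives about 1 in 20, or 3.5. With doxycycline, OLFM4 was at 0.0 CPM in clone 6 and at 0.0291 to 0.0332 CPM in the others, which is 1 read each. TENM3 in the controls was at 23.3 CPM in clone 5 and at 30.4 to 31.7 CPM in the others. NRCAM with doxycycline was at 25.1 CPM in clone 5 and at 42.0 to 45.4 CPM in the others. Of the transcripts, NM_001286353.2 of OLFML3 with doxycycline was at 34.2 CPM in clone 5 against 52.3 to 55.6 CPM elsewhere, and NM_001304347.2 of OLFM2 with doxycycline was at 55.8 CPM in clone 5 against 38.9 to 41.3 CPM. Of the 5 values, 4 are of clone 5, and 1 of these, TENM3, comes from the control file whose row order and number format differ from the other 7. The cause was not tested.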

How the results depend on the processing

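The number of members called with doxycycline was 0 by edgeR without pairing, 1 by DESeq2, and 2 with the replicate block, 2 by DESeq2 with it, 2 with DESeq2's size factors and it, and 2 in each of the fits with it that left out 1 origin. Without pairing it stayed at 0 to 0 when each origin was left out. For the related genes the number was 0 without pairing (0 to 0 with each origin left out), 2 by DESeq2, 4 with the replicate block, 6 by DESeq2 with it and 4 with DESeq2's size factors and it; with the block it was 4 without the polyclonal pair, 3 without clone 3, 1 without clone 5 and 1 without clone 6. Over all genes, edgeR called 1 without pairing and 1221 with the replicate block, and between 175 and 699 with it when 1 origin was left out, DESeq2 called 231 and 1920, and edgeR called 3 transcripts without pairing and 0 with it. The number of members that differed between origins ranged from 2 to 5 when each origin was left out, with 2 without clone 5, and was 5 otherwise or 4 by DESeq2 and with the filter of 10 counts in every library. Member transcripts called stayed at 0 under each alternative run, 0 to 0 with each origin left out. No doxycycline fold change of the tested members, FEZF1 and the 6 named related genes changed sign under the alternatives. OLFM4, OLFML1 and OLFML2B are limited by depth, and the sum of OLFML2B also by its share of the authors' mean, 37.7%. With 1 library per origin and treatment, the spread within an origin was not measured.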
